A study of Mus musculus with 20 samples.

Results

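Markers of resident and recruited macrophages were followed in mouse hearts; they are 10 of the 25851 genes in the deposited expression table. The genes were chosen by name: 5 markers of resident cardiac macrophages (Timd4, Lyve1, Folr2, Cd163 and Mrc1) and 5 that mark recruited macrophages or are shared by both kinds (Ccr2, Lgals3, Cx3cr1, Adgre1 and Csf1r). RNA came from pieces of heart of 20 males between 14 and 16 weeks old, in 4 groups with 5 animals each. Wild-type mice stayed sedentary or ran voluntarily on wheels for 6 weeks, and mice labelled as cardiomyocyte PGC-1α knockouts did the same. The series title asks how PGC-1α and the hormone GDF15 bear on the heart's adaptation to training; the promoter that drove the deletion and the deleted exons are not given in the sources used here.

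Macrophages are the most common immune cells of the healthy heart. Many descend from embryonic precursors, renew themselves in place and carry the phosphatidylserine receptor TIMD4, the hyaluronan receptor LYVE1 and the folate receptor FOLR2, and they clear dying cells and debris. Others come from blood monocytes, which follow chemokines through the receptor CCR2 and are replaced throughout life. Both kinds need signalling through CSF1R to survive. The samples are bulk tissue, so more macrophages and more RNA per macrophage cannot be told apart.

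Values are FPKM, which count fragments per length of exon and per depth of the library. The authors deposited them in this unit, which allows levels of genes to be compared per length. A comparison used limma over all 20 libraries and 13723 genes with a mean of at least 0.5 FPKM, and a gene passed at an adjusted p under 0.05. Differences are on the log2(FPKM + 0.5) scale, with standard errors (SE), and this scale understates the change of low genes. Of the 10 markers 9 entered the fit; Ccr2, whose mean lay under 0.5 FPKM, was tested by exact permutation instead. Gene positions are on GRCm38 with GENCODE M21, where all 10 are protein coding. The labels count 5 mice per group and say nothing of litters or cages, so p-values measure the spread between these mice.

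The libraries held 14.2 to 30.4 M reads, as recovered from the FPKM steps. Ppargc1a, the gene for PGC-1α, was higher in hearts labelled knockout: 9.39 to 15.4 FPKM in sedentary wild-type against 18.2 to 27.9 in sedentary labelled knockout mice, and 10.4 to 21.9 against 18.7 to 26.9 after training (0.88 and 0.55 on the log2 scale, limma adjusted p = 0.0047 and 0.039). A level over the whole gene does not check a deletion of unstated exons, and the groups are called labelled knockout throughout. Replicates 4 and 5 of trained wild-type and 2 and 5 of trained labelled knockout mice held 1355 to 3484 FPKM of the atrial light chain Myl7, against at most 97.1 in the other 16. They are called atrial libraries here. Sedentary wild-type replicates 1 to 4 and sedentary labelled knockout replicate 1 held 2.46 to 4.36 FPKM of the clock gene Arntl, against at most 1.16 elsewhere. Rescaling each library to a common sum (TPM) moved the median of all genes by up to 0.25 on the log2 scale. With it, the share of passing genes that were higher went from 52.4% to 72.9% (genotype, sedentary), 53.7% to 77.5% (training, wild-type), 42.5% to 86.6% (training, labelled knockout), 44.8% to 86.7% (genotype, trained) and 31.7% to 85.8% (interaction). A common sum without mitochondrial transcripts gave 49.5%, 35.3%, 75.8%, 79.6% and 90.5%. No marker that passed changed direction under any scaling.

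In trained mice, labelled knockout hearts held more transcript of 6 of the 9 tested markers than wild-type hearts, and none was lower. They were the shared receptors Csf1r and Adgre1, the resident markers Mrc1, Cd163 and Folr2, and the chemokine receptor Cx3cr1, by 0.66 to 1.47 on the log2 scale. Of all genes tested 27.9% passed in this comparison, 12.5% higher and 15.4% lower. The median of the 9 markers was 0.82, beside -0.01 over all genes tested. The groups did not overlap for Csf1r, Adgre1, Mrc1 and Cd163, which held for 19.2% of all genes tested, 8.07% higher and 11.1% lower.

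Csf1r (ENSMUSG00000024621) encodes the receptor for the growth factors CSF1 and IL-34 on which macrophages depend. Its levels were 9.79, 12.7, 10.2, 11.2 and 11.0 FPKM in trained wild-type and 25.0, 17.0, 28.5, 28.4 and 22.6 in trained labelled knockout hearts. Every labelled knockout library was above every wild-type one, and the difference was 1.09 ± 0.13 (SE; limma adjusted p = 2.6e-06). All sedentary libraries were under the lowest of these trained labelled knockout values: 10.2, 10.8, 8.03, 10.8 and 11.5 FPKM in wild-type and 12.0, 16.4, 14.0, 14.2 and 15.3 in labelled knockout mice. About 15.1% of the exon sequence of Csf1r overlaps that of Hmgxb3, and how the authors' counting treated shared bases is not stated.

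Adgre1 (ENSMUSG00000004730, chromosome 17, 57358691 to 57483527, plus strand) encodes F4/80, the adhesion receptor used as the general surface marker of mouse macrophages. It had 3.86, 4.18, 3.43, 3.09 and 3.01 FPKM in trained wild-type and 13.7, 6.46, 13.1, 14.3 and 7.75 in trained labelled knockout hearts. The lowest 2 of the latter, replicates 2 and 5, are the atrial libraries, and both still lay above all wild-type libraries. The difference was 1.47 ± 0.18 (limma adjusted p = 6.4e-06), the largest of the 9 tested markers here. Sedentary mice had 4.29, 3.78, 3.01, 3.33 and 2.41 FPKM in wild-type and 4.28, 4.58, 3.35, 3.83 and 4.16 in labelled knockout hearts, close to the trained wild-type level.

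Mrc1 (ENSMUSG00000026712, chromosome 2, 14229392 to 14332057, plus strand) encodes the mannose receptor CD206, an endocytic receptor of tissue macrophages. Trained wild-type hearts had 3.90, 4.97, 3.61, 3.09 and 2.96 FPKM and trained labelled knockout hearts 12.0, 7.56, 13.3, 11.8 and 6.03. The groups were apart, and the difference was 1.30 ± 0.20 (limma adjusted p = 5.5e-05). In sedentary mice the values were 5.87, 4.78, 4.91, 3.12 and 3.31 FPKM in wild-type and 6.43, 4.58, 4.93, 4.73 and 4.52 in labelled knockout hearts. The atrial libraries of trained labelled knockout mice were again the low ones, with a mean of 6.79 FPKM against 12.4 in the other 3.

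Cd163 (ENSMUSG00000008845, chromosome 6, 124304656 to 124330527, plus strand) encodes the scavenger receptor that takes up haemoglobin bound to haptoglobin. It had 4.22, 5.41, 3.73, 4.73 and 4.60 FPKM in trained wild-type and 8.39, 7.38, 8.62, 9.47 and 7.94 in trained labelled knockout hearts. Here the 5 labelled knockout libraries lay close together and above all others, and the difference was 0.82 ± 0.13 (limma adjusted p = 1.2e-04). Sedentary values were 4.38, 4.36, 3.29, 5.60 and 3.45 FPKM in wild-type and 3.79, 4.55, 5.56, 5.11 and 6.50 in labelled knockout hearts.

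RefSeq promoter windows on GRCm38.p6, from 250 bases before to 50 after a transcript start, were scanned for 7 of the 10 markers, 8 windows in all. Lyve1 and Adgre1 had no entry, and Csf1r is not reported here. Of the scanned windows 3 are shown, because Mrc1 and Cd163 did not overlap between trained labelled knockout and trained wild-type hearts, while Lgals3 was highest in the atrial libraries. They are Mrc1 at chr2:14229164-14229463, Cd163 at chr6:124304401-124304700 and Lgals3 at chr14:47373610-47373909, all on the plus strand, with capitals for GAGGAA or its reverse complement TTCCTC.
Mrc1: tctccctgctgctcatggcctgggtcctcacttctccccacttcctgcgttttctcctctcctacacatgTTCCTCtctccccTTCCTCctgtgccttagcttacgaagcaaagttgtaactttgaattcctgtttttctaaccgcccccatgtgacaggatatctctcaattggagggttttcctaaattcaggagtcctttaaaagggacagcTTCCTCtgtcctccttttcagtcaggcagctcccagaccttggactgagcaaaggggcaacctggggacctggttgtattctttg
Cd163: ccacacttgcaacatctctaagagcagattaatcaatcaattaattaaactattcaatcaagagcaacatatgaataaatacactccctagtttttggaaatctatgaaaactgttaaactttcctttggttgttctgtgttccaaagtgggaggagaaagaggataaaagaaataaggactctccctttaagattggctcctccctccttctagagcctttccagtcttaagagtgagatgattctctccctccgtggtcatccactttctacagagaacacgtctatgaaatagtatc
Lgals3: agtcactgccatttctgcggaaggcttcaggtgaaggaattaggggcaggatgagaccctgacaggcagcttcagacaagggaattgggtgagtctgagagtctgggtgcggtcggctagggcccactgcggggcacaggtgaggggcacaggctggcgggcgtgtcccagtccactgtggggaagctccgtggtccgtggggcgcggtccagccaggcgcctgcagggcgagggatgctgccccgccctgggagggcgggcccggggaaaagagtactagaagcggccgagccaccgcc
GAGGAA is the core letters bound by PU.1, the macrophage transcription factor that Spi1 encodes. The Mrc1 window held it 3 times, on the minus strand, at 180, 167 and 35 bases before the start, and the other 7 windows did not. Of all 32851 RefSeq promoter windows of this length 28.3% held it on either strand. The AP-1 letters TGANTCA were in 1 of the 8 windows (Folr2) and in 7.81% of all, and the E-box letters CACGTG in 0 of the 8 and 7.15% of all. A match of letters is a description of the window only.

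Folr2 (ENSMUSG00000032725, chromosome 7, 101839988 to 101857194, minus strand) encodes folate receptor beta. Trained wild-type hearts had 2.16, 2.15, 1.01, 1.24 and 1.07 FPKM and trained labelled knockout hearts 2.52, 1.96, 3.28, 2.72 and 2.72. One labelled knockout value, that of replicate 2, fell among the wild-type ones, and the difference was 0.66 ± 0.17 (limma adjusted p = 0.0054). Sedentary mice ranged from 1.32 to 2.30 FPKM in wild-type and 1.59 to 2.17 in labelled knockout hearts. Folr2 is uncertain, since 63.1% of its exon bases are also exon of the antisense gene Gm10602 and the strand setting of the counting is not stated.

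Timd4 (ENSMUSG00000055546, chromosome 11, 46810800 to 46844332, plus strand) and Lyve1 (ENSMUSG00000030787, chromosome 7, 110850607 to 110863239, minus strand) did not pass in this comparison. Timd4 was low everywhere, with 0.552, 0.783, 0.552, 0.861 and 0.977 FPKM in trained wild-type and 1.09, 0.986, 0.851, 0.715 and 1.35 in trained labelled knockout hearts. The groups overlapped, and the difference of 0.26 had a 95% interval from -0.04 to 0.57 (limma adjusted p = 0.20). With TPM, which moved the median of all genes by 0.25 in this comparison, it was 0.45 and passed (limma adjusted p = 0.030). Timd4 rested on 17 to 75 reads per library. Lyve1 had 8.11, 11.7, 7.05, 14.2 and 18.1 FPKM in trained wild-type and 13.6, 12.5, 12.9, 12.4 and 16.6 in trained labelled knockout hearts, with a difference of 0.26 (95% interval -0.19 to 0.72, limma adjusted p = 0.41). The trained wild-type libraries spread over more than the whole labelled knockout range, and their highest 2 were the atrial ones.

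Ccr2 (ENSMUSG00000049103, chromosome 9, 124101950 to 124113557, plus strand) and Cx3cr1 (ENSMUSG00000052336, chromosome 9, 119901616 to 120069879, minus strand) encode the chemokine receptors by which classical and patrolling monocytes are told apart. Ccr2 had 0.103, 0.409, 0.346, 0.245 and 0.226 FPKM in trained wild-type and 1.54, 0.586, 1.13, 0.846 and 0.509 in trained labelled knockout hearts. All 5 labelled knockout libraries were above all 5 wild-type ones; the difference of means was 0.657 FPKM, a ratio of 3.47 (exact permutation p = 0.00794, two-sided, the smallest that 5 against 5 can give; 0.0317 adjusted over the 4 comparisons). Without the 4 atrial libraries the difference was 0.887 FPKM, and with 3 against 3 the exact p of 0.1 was the smallest possible. Cx3cr1 had 0.233, 0.362, 0.373, 0.214 and 0.191 FPKM against 0.950, 0.476, 1.57, 1.35 and 0.319. The atrial libraries had the low labelled knockout values here too, one of them within the wild-type range, and the difference was 0.81 ± 0.26 (limma adjusted p = 0.023). Without trained labelled knockout replicate 3 or 4 the call of Cx3cr1 was lost, at 0.65 (limma adjusted p = 0.077) and 0.69 (0.072).

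Lgals3 (ENSMUSG00000050335, chromosome 14, 47367751 to 47386160, plus strand) encodes galectin-3, a carbohydrate-binding protein secreted by macrophages and known from cardiac fibrosis. Trained wild-type hearts had 1.94, 4.42, 3.26, 24.2 and 29.7 FPKM and trained labelled knockout hearts 18.0, 26.6, 14.2, 15.5 and 24.9. The 4 atrial libraries were the 4 highest of all 20, and the remaining 3 trained labelled knockout libraries lay above the remaining 3 trained wild-type ones. Over all libraries the difference was 1.29 ± 0.50 (limma adjusted p = 0.061). Without the atrial libraries it was 2.20 (limma adjusted p = 1.7e-06), and without trained wild-type replicate 4 or 5 alone it was 1.70 (0.011) and 1.77 (0.0043).

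**Figure D1:**
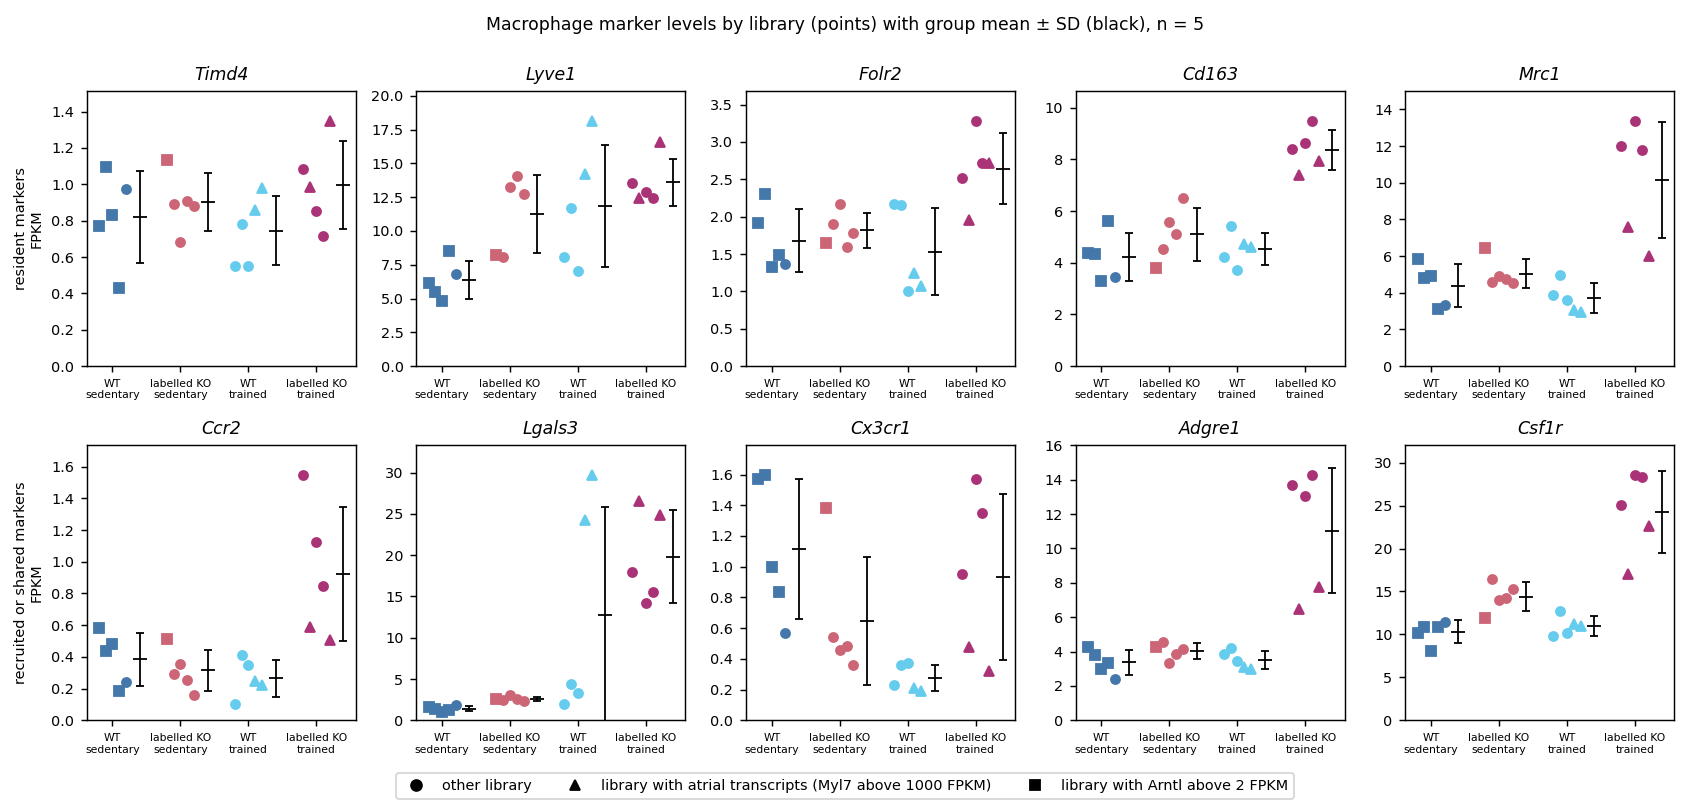
FPKM of each of the 10 markers in the 20 libraries (vertical axes, linear), by group; points are libraries, black marks the mean ± SD of 5 mice, triangles the 4 atrial libraries and squares the 5 libraries with Arntl above 2 FPKM. Csf1r, Adgre1, Mrc1, Cd163 and Ccr2 of trained labelled knockout hearts lie above all trained wild-type points, while Lgals3 is highest in the triangles.

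Training in labelled knockout mice raised 5 of the 9 tested markers and lowered none. Lgals3, Adgre1, Mrc1, Csf1r and Cd163 rose by 0.68 to 2.68 on the log2 scale, so that 2 of the 5 resident markers and 3 of the 4 tested recruited or shared ones passed. In this comparison 28.4% of all genes tested passed, 12.1% higher and 16.3% lower. The comparison uses the trained labelled knockout libraries of the one above, so the results are not independent of each other.

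Lgals3 had 2.60, 2.46, 3.03, 2.61 and 2.30 FPKM in sedentary labelled knockout hearts, and all 5 trained libraries, from 14.2 to 26.6 FPKM, lay above them. The rise was 2.68 ± 0.50 (limma adjusted p = 5.5e-04), and without the atrial libraries it was 2.40 (limma adjusted p = 9.7e-07). Adgre1 rose from 4.04 ± 0.468 to 11.0 ± 3.65 FPKM (SD, n = 5), by 1.29 ± 0.18 (SE; limma adjusted p = 5.1e-05). Csf1r rose from 14.4 ± 1.67 to 24.3 ± 4.77 FPKM, by 0.72 ± 0.13 (limma adjusted p = 3.1e-04), and Cd163 from 5.10 ± 1.03 to 8.36 ± 0.783, by 0.68 ± 0.13 (8.8e-04). Sedentary and trained groups did not overlap for these 4, as for 22.7% of all genes tested, 8.96% higher and 13.7% lower. Mrc1 rose by 0.90 ± 0.20 (limma adjusted p = 0.0022), with the sedentary replicate 1, at 6.43 FPKM, above the trained replicate 5, at 6.03.

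Among the rest, Folr2 was 0.43 ± 0.17 higher and just missed the threshold (95% interval 0.08 to 0.78, limma adjusted p = 0.061). It passed without the atrial libraries at 0.53 (limma adjusted p = 0.043), and also without trained wild-type replicate 1 or 2 or trained labelled knockout replicate 2 (0.43 to 0.52, 0.033 to 0.045). Lyve1 differed by 0.29 (interval -0.16 to 0.74), Timd4 by 0.09 (-0.22 to 0.40) and Cx3cr1 by 0.30 (-0.24 to 0.83), none past the threshold. With array weights Cx3cr1 passed, at 0.60 (limma adjusted p = 0.020). Ccr2 had 0.511, 0.294, 0.354, 0.252 and 0.160 FPKM in sedentary labelled knockout hearts. The trained mean was 0.608 FPKM higher, a ratio of 2.94, with 1 trained value, 0.509, just under the highest sedentary one (exact permutation p = 0.0159, 0.0317 adjusted over the 4 comparisons).

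Without training, labelled knockout and wild-type hearts differed in 2 of the 9 tested markers, Lyve1 and Csf1r, while 13.3% of all genes tested passed, 6.96% higher and 6.32% lower. Csf1r was 0.47 ± 0.13 higher in labelled knockout hearts (limma adjusted p = 0.019), and its lowest labelled knockout value, 12.0 FPKM, was above the highest wild-type value, 11.5. Lyve1, the hyaluronan receptor, had 6.12, 5.50, 4.80, 8.51 and 6.83 FPKM in wild-type and 8.25, 8.08, 13.2, 14.1 and 12.7 in labelled knockout hearts. It was 0.77 ± 0.22 higher (limma adjusted p = 0.024), with 2 labelled knockout values under the highest wild-type one. Lgals3, at 1.56, 1.41, 1.04, 1.24 and 1.87 FPKM in wild-type hearts, also lay below all labelled knockout libraries, and its difference of 0.70 ± 0.50 did not pass with the spread shared by all 4 groups (limma adjusted p = 0.36). Fitted on the sedentary groups alone it passed (limma adjusted p = 0.0038), as it did without the atrial libraries (0.0082). Genes whose groups did not overlap made up 10.4% of all genes tested, 5.14% higher and 5.29% lower.

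Cx3cr1 had 1.57, 1.59, 0.998, 0.838 and 0.570 FPKM in sedentary wild-type and 1.38, 0.541, 0.459, 0.485 and 0.360 in sedentary labelled knockout hearts. The 5 libraries with high Arntl held the 5 highest of these 10 values, and the genotype difference was -0.51 (95% interval -1.05 to 0.03, limma adjusted p = 0.19). Without labelled knockout replicate 1 it was -0.70 (limma adjusted p = 0.048), and with array weights -0.84 (0.0064). Timd4, at 0.773, 1.09, 0.833, 0.428 and 0.974 FPKM in wild-type and 1.14, 0.893, 0.684, 0.911 and 0.882 in labelled knockout hearts, overlapped (0.10, interval -0.21 to 0.41). Differences of Cd163 (0.25, interval -0.03 to 0.53), Mrc1 (0.20, -0.21 to 0.62), Folr2 (0.10, -0.25 to 0.45) and Adgre1 (0.25, -0.14 to 0.63) did not pass. Ccr2 had 0.580, 0.434, 0.483, 0.186 and 0.240 FPKM in sedentary wild-type hearts, and its means differed by -0.0705 FPKM (exact permutation p = 0.468).

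Both sedentary calls were lost when certain single libraries were left out. Lyve1 missed the threshold without any one of wild-type replicates 1, 2 and 3 or labelled knockout replicates 3, 4 and 5 (0.68 to 0.76, limma adjusted p = 0.051 to 0.073), and Csf1r without wild-type replicate 3 or labelled knockout replicate 2 or 5 (0.38 to 0.44, 0.051 to 0.065). With log2 Arntl as a covariate Lyve1 was at 0.43 (limma adjusted p = 0.37) and Csf1r at 0.34 (0.24), and genotype and Arntl cannot be told apart in 4 of the 5 sedentary wild-type libraries.

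In wild-type mice training moved 3 of the 9 tested markers: Lyve1 and Lgals3 rose and Cx3cr1 fell, where 5.47% of all genes tested passed, 2.94% higher and 2.53% lower. Lyve1 rose from 6.35 ± 1.42 to 11.8 ± 4.53 FPKM (SD, n = 5), by 0.79 ± 0.22 (SE; limma adjusted p = 0.042). Lgals3 rose from 1.42 ± 0.316 to 12.7 ± 13.2 FPKM, by 2.08 ± 0.50 (limma adjusted p = 0.027), and the lowest trained value, 1.94, was just above the highest sedentary one, 1.87. Cx3cr1 fell from 1.11 ± 0.454 to 0.274 ± 0.0861 FPKM, by 1.02 ± 0.26 (limma adjusted p = 0.032), with no overlap. Genes whose groups did not overlap made up 3.93% of all genes tested (2.24% higher, 1.68% lower), and the sedentary wild-type libraries are shared with the sedentary comparison of genotypes.

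All 3 of these calls moved with libraries that stand apart. The 2 atrial libraries had mean levels of 26.9 FPKM for Lgals3 and 16.2 for Lyve1, against 3.21 and 8.96 in the other 3 trained wild-type hearts. Without the atrial libraries 3 trained wild-type hearts remained. The differences were then 0.90 for Lgals3 (limma adjusted p = 0.052), 0.46 for Lyve1 (0.34) and -0.93 for Cx3cr1 (0.14). Over all libraries that of Cx3cr1 was -1.02, so its size changed little while its call was lost. With log2 Arntl as a covariate the differences of Lgals3, Lyve1 and Cx3cr1 were 1.57 (limma adjusted p = 0.25), 0.47 and -0.50 (0.35). Removing single libraries ended the call of Lgals3 for sedentary wild-type replicates 1 and 3 and trained wild-type replicates 4 and 5 (1.60 to 2.11, limma adjusted p = 0.058 to 0.086), and that of Cx3cr1 for sedentary wild-type replicates 1 to 3 and trained wild-type replicates 2, 4 and 5 (-1.06 to -0.91, 0.058 to 0.088). That of Lyve1 was lost for 9 libraries: sedentary wild-type 1 to 3, sedentary labelled knockout 5, trained wild-type 2, 4 and 5 and trained labelled knockout 1 and 3 (0.63 to 0.79, 0.051 to 0.12).

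None of the other 6 tested markers passed with training in wild-type mice. Their differences were -0.07 for Timd4 (95% interval -0.38 to 0.23), -0.13 for Folr2 (-0.48 to 0.22), 0.11 for Cd163 (-0.17 to 0.39), -0.21 for Mrc1 (-0.62 to 0.21), 0.07 for Adgre1 (-0.32 to 0.45) and 0.09 for Csf1r (-0.17 to 0.36). Ccr2 means differed by -0.119 FPKM (exact permutation p = 0.214).

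**Figure D2:**
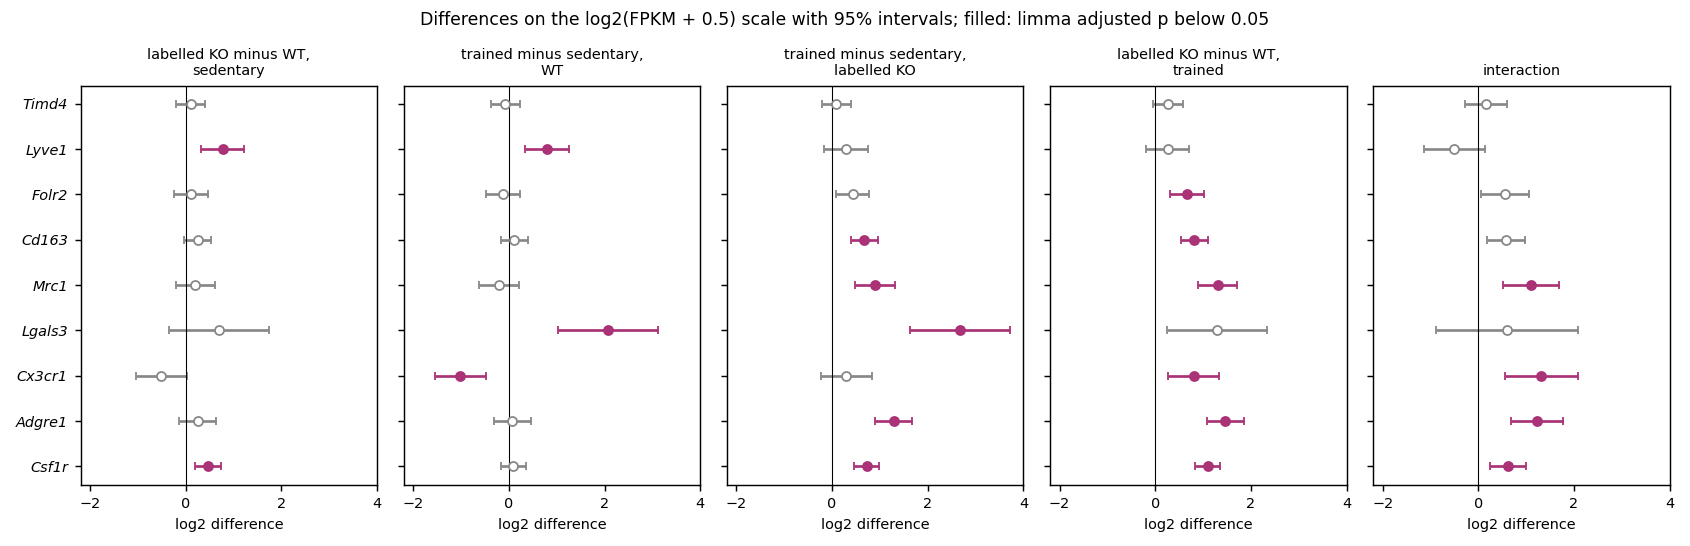
Log2 differences of the 9 tested markers (horizontal axes, log2 of FPKM + 0.5) in the 4 comparisons and the interaction; bars are 95% intervals and filled points passed at an adjusted p under 0.05. Adgre1, Csf1r, Mrc1 and Cd163 are filled and to the right of 0 both for training in labelled knockout mice and for genotype in trained mice, and Timd4 is filled nowhere.

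Whether training acted differently in the 2 genotypes was tested by the interaction, in which 7.32% of all genes tested passed, 2.32% as more positive and 5% as more negative in labelled knockout mice. It passed for 4 of the 9 markers: Adgre1 (1.22 ± 0.26, limma adjusted p = 0.011), Mrc1 (1.10 ± 0.28, 0.026), Cx3cr1 (1.32 ± 0.36, 0.035) and Csf1r (0.63 ± 0.18, 0.041). For Cx3cr1 this combines the fall in wild-type mice with a difference of 0.30 in labelled knockout mice that did not pass. Cd163 (0.57, 95% interval 0.17 to 0.96, limma adjusted p = 0.073), Folr2 (0.56, 0.06 to 1.05, 0.15), Lyve1 (-0.51, -1.15 to 0.14, 0.295) and Lgals3 (0.60, -0.88 to 2.07, 0.61) did not pass. Without the atrial libraries Lgals3 passed too, at 1.50 (limma adjusted p = 0.0029), and with array weights Folr2, at 0.85 (0.0062). The interaction of Adgre1 passed without each single library, and those of Mrc1, Csf1r and Cx3cr1 were lost without 5, 12 and 13 of the 20 (0.99 to 1.07, 0.56 to 0.65 and 1.16 to 1.36). With log2 Arntl as a covariate none of the 4 passed, at 1.01 for Adgre1 (limma adjusted p = 0.058), 0.81 for Mrc1 (0.12), 0.82 for Cx3cr1 and 0.74 for Csf1r (0.050).

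**Figure D3:**
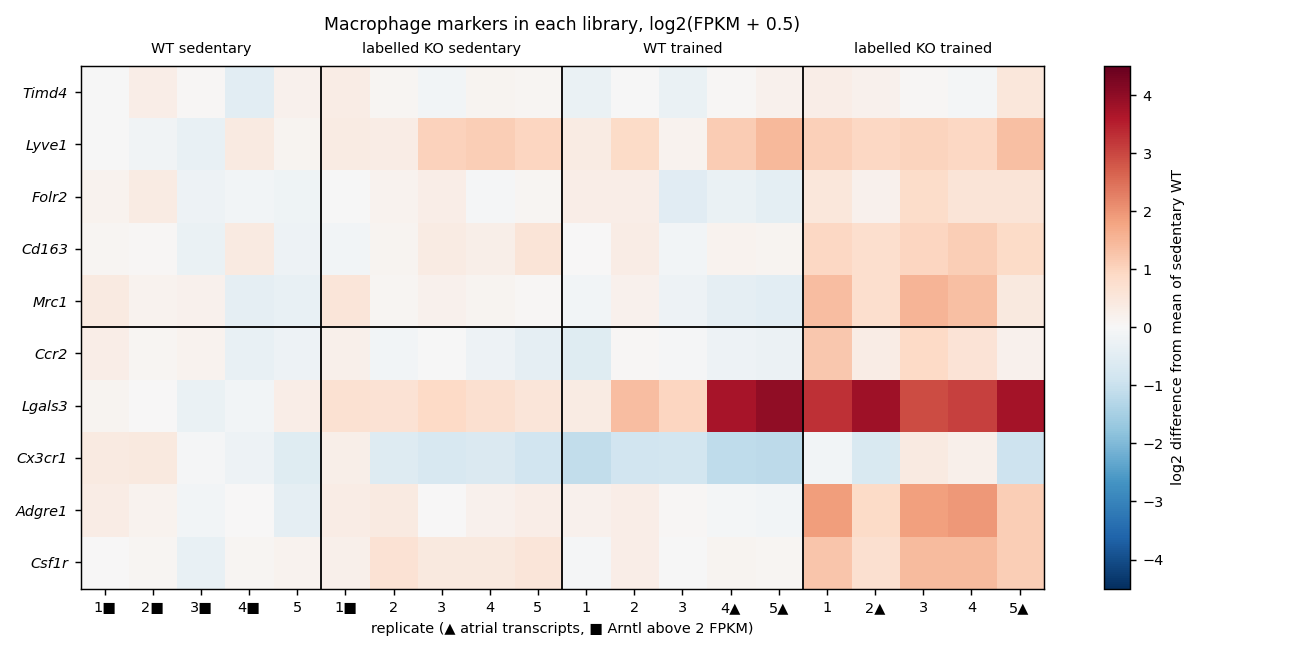
Each marker (vertical) in each library (horizontal, by group and replicate), coloured by its log2(FPKM + 0.5) minus the mean of sedentary wild-type hearts. The 5 trained labelled knockout columns are red for most markers, and replicates 2 and 5 of that group are paler for Mrc1, Adgre1 and Ccr2 and blue for Cx3cr1, but not paler for Lgals3.

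The order of levels also changed between groups. In sedentary wild-type hearts Csf1r had the highest mean, followed by Lyve1, Mrc1, Cd163 and Adgre1, then Folr2, Lgals3, Cx3cr1, Timd4 and Ccr2; of neighbours in this order, Adgre1 and Folr2 alone did not overlap. In trained labelled knockout hearts Csf1r was followed by Lgals3, Lyve1, Adgre1, Mrc1 and Cd163, each overlapping the next, then, set apart, by Folr2 and by Timd4, and last by Cx3cr1 and Ccr2. Galectin-3 transcript had thus gone from the seventh place to the second. In trained wild-type hearts it was first by its mean, ahead of Lyve1 and Csf1r, with 2 libraries far above the rest, and in sedentary labelled knockout hearts it was sixth.

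Summed over genes, the 5 resident markers came to 17.5 ± 1.83 FPKM in sedentary wild-type, 24.1 ± 3.24 in sedentary labelled knockout, 22.4 ± 4.79 in trained wild-type and 35.7 ± 3.40 in trained labelled knockout hearts (SD, n = 5). The 5 recruited or shared markers came to 16.6 ± 1.88, 22.0 ± 1.42, 27.7 ± 12.9 and 57.0 ± 3.66 FPKM in the same order. The resident sum divided by the other was 1.06 ± 0.0840, 1.10 ± 0.181, 0.896 ± 0.270 and 0.626 ± 0.0271, by its mean lowest and least variable in trained labelled knockout hearts. The 2 atrial libraries of trained wild-type hearts, at 0.619 and 0.629, lay within the trained labelled knockout range of 0.594 to 0.667. With Lgals3 left out this ratio was 1.16 ± 0.0785, 1.26 ± 0.219, 1.49 ± 0.305 and 0.994 ± 0.173. The trained labelled knockout range was then 0.829 to 1.24 and overlapped that of each other group. These sums are led by Csf1r, Lyve1 and Lgals3 and are given as a description.

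**Figure D4:**
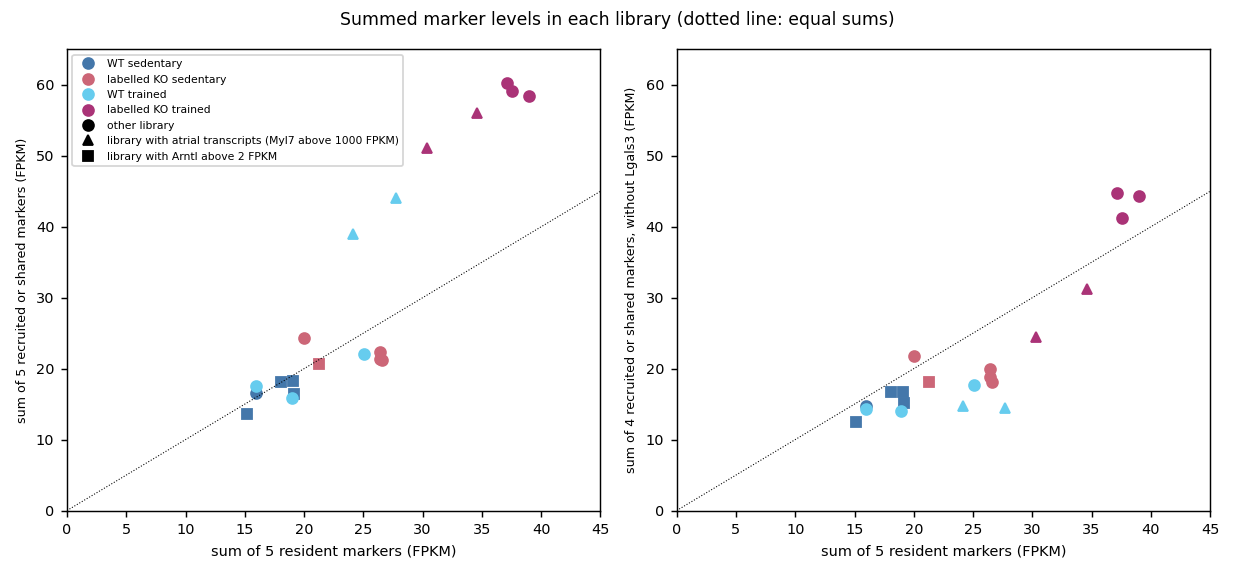
Summed FPKM of the 5 resident markers (horizontal) against that of the recruited or shared markers (vertical), 1 point per library, with all 5 of the latter on the left and Lgals3 left out on the right; the dotted line marks equal sums. The trained labelled knockout points lie apart at the upper right of the left panel, above the line.

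Relative to Csf1r of the same heart, all 5 resident markers had a lower mean ratio in trained labelled knockout than in sedentary wild-type hearts, and the recruited or shared markers differed among themselves. Adgre1 was 0.332, 0.283, 0.322 and 0.446 of the Csf1r level in sedentary wild-type, sedentary labelled knockout, trained wild-type and trained labelled knockout hearts, and Mrc1 was 0.440, 0.359, 0.338 and 0.415. Timd4, the marker most specific to long-lived residents, was 0.0809, 0.0640, 0.0675 and 0.0432, and Cx3cr1 was 0.110, 0.0478, 0.0251 and 0.0366. Lyve1 was 0.617, 0.790, 1.07 and 0.580, Cd163 0.411, 0.355, 0.413 and 0.351, and Folr2 0.164, 0.127, 0.140 and 0.109. Ccr2 was 0.0390, 0.0228, 0.0238 and 0.0376, and Lgals3 0.138, 0.183, 1.14 and 0.886. The ratios of Mrc1, Lyve1 and Ccr2 in trained labelled knockout and sedentary wild-type hearts differed by less than 1 SD of either group. These are means of 5 ratios, 1 per heart, without a test.

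Within groups, after the group means were subtracted, the markers fell into sets that crossed the resident and recruited names. Over the 20 libraries the Pearson correlation was 0.86 for Mrc1 with Cx3cr1, 0.82 for Mrc1 with Ccr2, 0.78 for Mrc1 with Adgre1 and 0.76 for Cx3cr1 with Adgre1, and 0.69 for Lyve1 with Lgals3. The lowest values, -0.45, were those of Lyve1 with Mrc1, both resident markers, of Folr2 with Lgals3 and of Lyve1 with Cx3cr1. Lgals3 had -0.01 with Csf1r, -0.42 with Adgre1, -0.27 with Cx3cr1 and -0.10 with Ccr2. With further resident markers it had 0.51 (Timd4), 0.06 (Cd163) and -0.43 (Mrc1), and the cells its RNA came from were not tested. The points share libraries, depth and the atrial and Arntl differences, and the values are a description. Among all genes tested the nearest to Mrc1 were Lilrb4a (0.96), Slc39a10 (0.93) and Itpripl2 (0.92), and to Ccr2 Gda (0.90), Lilrb4a (0.85) and Ifi203 (0.84). Cx3cr1 was nearest to Mmp14 (0.96), Amot (0.91) and Foxs1 (0.89), Adgre1 to Rab31 (0.90), Ms4a7 (0.90) and Col3a1 (0.89), and Csf1r to Hps6 (0.87), Col1a2 (0.86) and Gusb (0.86). Lgals3 was nearest to Pdk3 (0.95), Gpx3 (0.95) and Gltp (0.94), Lyve1 to Palm (0.89), Fbln1 (0.88) and Eng (0.87), and Cd163 to Nisch (0.86), Ms4a4a (0.84) and Limk2 (0.84). Folr2 had Gm16181 (0.81), Gm38399 (0.76) and Zbtb3 (0.75), and Timd4 Sh3bgrl (0.78), Cryzl1 (0.77) and Ankrd6 (0.77).

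Other macrophage genes were counted over lists of named genes. In trained mice 15 of 16 tested core macrophage genes were higher in labelled knockout hearts and none lower (list median 1.04, all genes -0.01). Of all genes tested 12.5% were higher and 15.4% lower. Among them were the immunoglobulin receptor Fcgr3 (16.3 ± 3.25 against 7.13 ± 1.29 FPKM, log2 difference 1.13, limma adjusted p = 1.7e-06), Spi1, which encodes PU.1 (4.59 against 1.97 FPKM, 1.03), the lipopolysaccharide co-receptor Cd14 (11.4 against 4.73, 1.19) and the lysosomal protein Cd68 (13.7 against 5.60, 1.21). The summed level of the list was 438 to 783 FPKM in trained labelled knockout hearts, 205 to 370 in trained wild-type, 321 to 371 in sedentary labelled knockout and 200 to 291 in sedentary wild-type hearts. The tissue thus held defining macrophage transcripts in all 20 libraries, and the trained labelled knockout range lay above all others.

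Of 14 tested further resident genes 8 were higher in trained labelled knockout hearts (median 0.50), beside 12.5% of all genes tested. They included the transcription factor Maf (0.88), the transglutaminase subunit F13a1 (1.28) and the carbonyl reductase Cbr2 (0.98). All 6 tested MHC class II genes, which present antigen, were higher (median 0.72), with H2-DMb1 at 0.71, H2-DMa at 0.55, H2-Eb1 at 0.78 and H2-Ab1 at 0.74, and without the atrial libraries 2 of the 6 passed (median 0.89). With no filter 3 of all 7 listed genes passed. Of 9 tested monocyte and recruited macrophage genes 6 were higher and 1 lower, but 3 of the 9 (Fcgr4, Gpnmb and Spp1) were above the filter only through trained labelled knockout hearts. With no filter, a setting added after the data were seen, 8 of all 18 listed genes were higher and 1 lower (median 0.29). The share of all genes that passed with no filter is not given here, for this or the other lists. Spp1, which encodes osteopontin (2.08 against 0.293 FPKM, log2 difference 1.72), the proteoglycan gene Vcan (1.34) and the lipid receptor gene Trem2 (1.11) were higher, and the fatty acid binding protein gene Fabp5 was lower (-0.62).

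Chemokine genes listed as ligands of CCR2 and CX3CR1 moved as well. All 5 were higher in trained labelled knockout than in trained wild-type hearts (median 0.93), beside 12.5% of all genes tested. The receptor that each chemokine, CCL8 among them, uses in the mouse was not tested. Ccl8 had 17.3 ± 12.9 FPKM against 1.52 ± 1.33 (SD, n = 5), a log2 difference of 3.07 (limma adjusted p = 9.8e-06), and Ccl12 had 4.63 against 0.952 FPKM (1.72). Ccl2, the main ligand of CCR2, had 3.97 against 2.16 FPKM (0.73), and Ccl7 differed by 0.93. Of the 5 tested growth factor genes 4 were higher, and with no filter 4 of all 6. They were the receptor subunits Csf2rb (0.93), above the filter only through trained labelled knockout hearts, and Csf2ra (0.82), with Csf3r (0.59) and the CSF1R ligand Csf1 (14.3 against 10.2 FPKM, 0.47).

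With training in labelled knockout mice all 16 tested core macrophage genes rose (median 0.73, with Cd14 at 1.12, Ctss 1.23, Fcgr3 0.78 and Laptm5 0.88), beside 12.1% of all genes tested. All 6 MHC class II genes, 7 of 14 further resident genes (Igf1 1.04, Stab1 0.81, F13a1 0.91), 7 of 9 monocyte and recruited genes (Gpnmb 1.12, Spp1 1.35, Vcan 1.20, Trem2 0.78) and 3 of 5 ligand genes (Ccl8 3.25, Cx3cl1 0.89, Ccl2 0.89) rose. Of the 9 monocyte and recruited genes Fcgr4, Gpnmb and Spp1 were above the filter only through trained labelled knockout hearts, the high group here. Counts with no filter are not given here for this comparison. With training in wild-type mice 0 of 16 core macrophage genes passed by limma (1 at an unadjusted p under 0.05, median 0.16), and 0 of 6 MHC class II (0 at an unadjusted p under 0.05) and 0 of 5 ligand genes. There 3 of 9 monocyte and recruited genes (median 0.41) and 1 of 14 further resident genes were higher, beside 2.94% of all genes tested. Between sedentary groups 3 of 9 monocyte and recruited genes were higher in labelled knockout hearts and 1 lower. Of 14 further resident genes 2 were higher, while 1 of 5 ligand genes was lower and 0 of 6 MHC class II genes passed. Of all genes tested 6.96% were higher and 6.32% lower there. In sedentary mice 5 of 16 core genes were higher in labelled knockout hearts, among them Fcgr3 (0.53), Cd68 (0.56), C1qc (0.56) and C1qb (0.59). Scaled to a common sum without mitochondrial transcripts 2 of the 16 passed. Without the 5 libraries with high Arntl 1 sedentary wild-type library remained and 14 of all 13738 genes passed, none of these 16 (median 0.45). Where 7.32% of all genes passed, 2.32% as more positive, the difference in training response passed for 4 of 16 core genes, Spi1 (0.81), Cd14 (0.84), Ctss (0.99) and Fcgr3 (0.61), and for 2 of 5 ligands, Ccl8 (2.54) and Cx3cl1 (0.99).

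**Figure D5:**
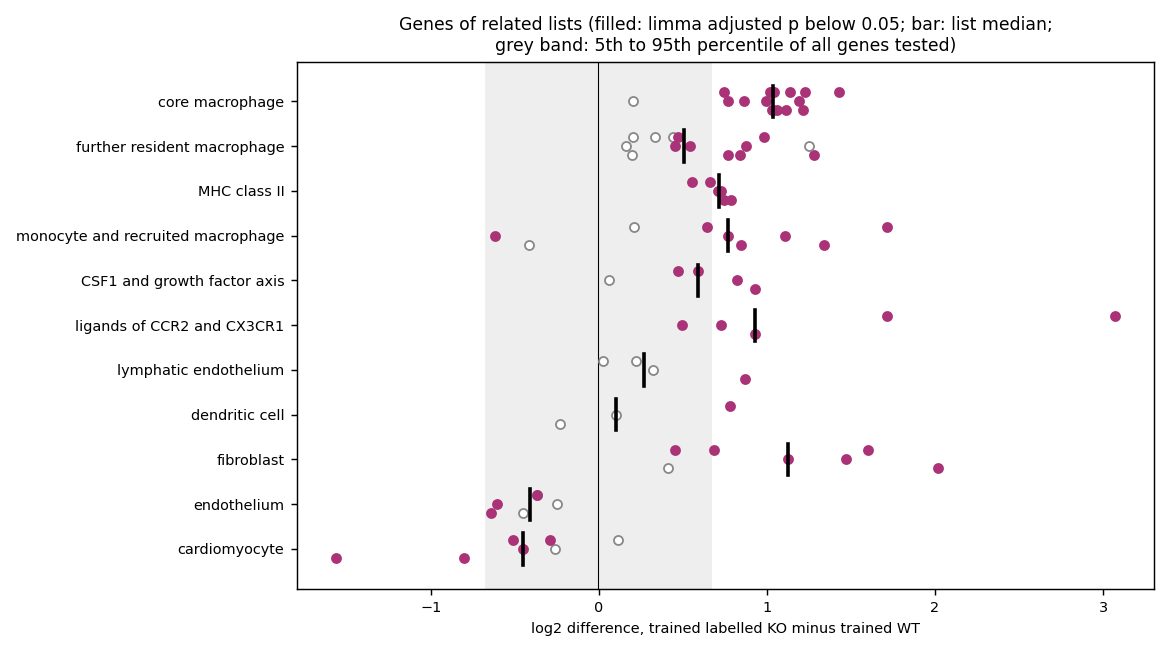
Log2 differences of trained labelled knockout minus trained wild-type hearts (horizontal axis, log2 of FPKM + 0.5) for the tested genes of 11 lists; points are genes (filled where the adjusted p was under 0.05), bars list medians, and the grey band spans the 5th to the 95th percentile of all genes tested, -0.67 to 0.67. The core macrophage and fibroblast medians, 1.04 and 1.12, lie to the right of the band, and the cardiomyocyte median, -0.45, is left of 0.

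Genes of other cells moved with the macrophage markers, and their part in the results was not tested. Between these 2 trained groups 12.5% of all genes tested were higher in labelled knockout hearts and 15.4% lower. Of 7 fibroblast genes 6 were higher in trained labelled knockout than in trained wild-type hearts, such as the collagen genes Col3a1 (2.02), Col1a1 (1.60) and Col1a2 (1.47) and the proteoglycan gene Lum (1.12). In the interaction, where 2.32% of all genes tested passed as more positive, 4 of the 7 passed: Col3a1 (2.11), Col1a1 (1.49), Col1a2 (1.11) and Lum (0.76). The summed level of the 7 was 323 to 571 FPKM in trained labelled knockout, 143 to 227 in trained wild-type, 180 to 212 in sedentary labelled knockout and 149 to 179 in sedentary wild-type hearts. Of 7 cardiomyocyte genes 5 were lower, such as the troponin gene Tnni3 (-1.57) and the myosin gene Myh6 (-0.45), and with TPM 3 were lower and 1 higher. Their summed level was 12768 to 14817 FPKM in trained labelled knockout and 15534 to 19823 in trained wild-type hearts. Lyve1 also marks lymphatic endothelium, of which 1 of 4 tested genes passed (Pdpn, 0.87), with sums of 13.7 to 17.9 and 10.5 to 13.4 FPKM. In wild-type mice, where Lyve1 rose with training, 1 of these 4 genes passed, beside 5.47% of all genes tested. It was the regulator Prox1 (-1.02, 8.80 to 3.90 FPKM). Pdpn (0.48), Flt4 (0.16) and Mmrn1 (-0.12) did not pass, and with no filter 0 of 6 passed. Prox1 led the mean list sum of 15.8 FPKM in sedentary wild-type hearts, and the cells its RNA came from were not tested. Upk3b, a mesothelial gene, was also uneven: trained wild-type hearts 2, 4 and 5 held 14.7, 18.9 and 9.43 FPKM and trained labelled knockout hearts 1, 2 and 5 held 5.44, 10.2 and 7.66, against at most 2.65 in sedentary hearts.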

How the data were processed

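The 10 markers and all gene lists were chosen with earlier results of these data known. Poly-A selected, strand-marked libraries of heart RNA were sequenced on a HiSeq2500, per the labels' protocols, and all 20 carry 1 batch date. The authors deposited FPKM, 1 column per library. HISAT2 2.0.5, featureCounts 1.5.0-p3, DESeq2 1.20.0 and mm10 are named in the submitters' processing notes without their roles; the annotation, the strand setting and any filter are not given in the sources used here. For 96.5% of genes the FPKM were whole multiples of 1 read (tolerance 0.01), which gave the library totals; precision is limited by these totals and by 5 mice per group.

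Genes with a mean of at least 0.5 FPKM were fitted as log2(FPKM + 0.5) in limma 3.58.1 (R 4.3.3, eBayes with trend, all 4 groups sharing 1 spread, two-sided, Benjamini-Hochberg over 13723 genes, threshold 0.05). Python 3.11.15 (pandas 2.3.3, numpy 2.4.6) made the tables and figures. The fit was tested on simulated data. Named are all 10 markers and Ppargc1a, up to 4 passing genes per list in order of p (1 gene of these is not reported here), the 3 nearest genes of each marker by within-group correlation, and Myl7, Arntl and Upk3b as marks of libraries that stand apart. Alternatives were the pseudocount, the filter, the scaling (median ratio, TPM, a common sum without mitochondrial transcripts), array weights, robust moderation, voom on recovered reads, the groups of a comparison alone, a replicate block and each library left out. Those on Myl7 and Arntl (libraries left out, or log2 level as a covariate), all settings for Ccr2, and the counts of lists with no filter, were added after the data were seen.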

Additional observations from a re-analysis of the deposited data

Results flagged for a closer look

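In sedentary labelled knockout hearts replicate 1 stood away from the other 4 for both Mrc1, at 6.43 FPKM against 4.52 to 4.93, and Cx3cr1, at 1.38 FPKM against 0.360 to 0.541. It is the 1 labelled knockout library with high Arntl. In trained labelled knockout hearts replicate 5, an atrial library, stood away for Lyve1, at 16.6 FPKM against 12.4 to 13.6. These were 3 of 40 groups examined by Dixon's test, and chance marks about 1 in 20.

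The response to training differed between the genotypes by the interaction test for Mrc1 (1.10 on the log2 scale, limma adjusted p = 0.026), Cx3cr1 (1.32, 0.035), Adgre1 (1.22, 0.011) and Csf1r (0.63, 0.041).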

How the results depend on the processing

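Of 1603 values of single markers under alternatives 1478 kept their direction and side of the threshold, 95 lost the threshold, 30 gained it and 0 of the called ones reversed. The number of markers passing was 4 to 9 (reported 6) for genotype in trained mice and 5 to 7 (reported 5) for training in labelled knockout mice over all alternatives. For genotype in sedentary mice it was 2, with 0 to 3 when single libraries were left out and 0 without the 5 libraries with high Arntl (1 at an unadjusted p under 0.05) or with log2 Arntl as a covariate (3 unadjusted). For training in wild-type mice it was 3, with 0 to 3 over single libraries, 1 with no filter, 1 with TPM, 1 with log2 Myl7 as a covariate, and 0 without the 4 atrial libraries (3 unadjusted), without those with high Arntl (0 unadjusted), with log2 Arntl as a covariate (2 unadjusted) and in these groups alone (3 unadjusted); voom gave 2. For the interaction it was 4, with 1 to 5 over single libraries, 2 with no filter, and 0 without the high-Arntl libraries (4 unadjusted) or with log2 Arntl as a covariate (5 unadjusted). Leaving out the high-Arntl libraries left 1 sedentary wild-type library, assumed to vary like the other groups. The cause of these changes was not tested. The Ccr2 difference between trained groups was 0.501 to 0.760 FPKM over single libraries and 0.887 without the atrial ones. With the replicate block the counts were 2, 3, 5, 6 and 4, as without it. Mean correlations between same-numbered libraries were 0.32, -0.07, -0.02, 0.02 and 0.18, with single pairs of replicate 1 at 0.25 to 0.36 and of replicate 5 at 0.08 to 0.48. Differently numbered libraries were not correlated for reference, so these values cannot tell whether the numbers pair the mice. The interaction needs all 4 groups and was not fitted on fewer. Timd4, Ccr2 and Cx3cr1 rested on 13 to 332 reads per library.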

Other observations

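Markers of other blood cells were described in the same way. None of 9 lymphocyte genes reached a mean of 0.5 FPKM, and their summed level was 0.838 to 1.89 FPKM over the 20 libraries. Dendritic cell genes summed to 4.97 to 7.24 FPKM in trained labelled knockout hearts and 3.59 to 5.48 in the other groups. Cd209a, a lectin of monocyte-derived dendritic cells, had 1.05 ± 0.356 FPKM in trained labelled knockout and 0.395 ± 0.133 in trained wild-type hearts (SD, n = 5) and was above the filter only through the former. In the fit with no filter 4 of all 6 dendritic cell genes were higher in trained labelled knockout hearts, and the share of all genes in that fit is not given here. Neutrophil genes summed to 0.999 to 2.24 FPKM in trained labelled knockout and 0.882 to 3.86 in trained wild-type hearts. Haemoglobin and other erythroid genes summed to 498 to 2456 and 975 to 1894 FPKM in these groups; 0 of 5 passed by limma (0 at an unadjusted p under 0.05, and 0 with TPM).

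Between the trained groups 3 of 6 endothelial genes were lower in labelled knockout hearts (median -0.41), beside 15.4% of all genes tested. They were Tie1 (23.1 against 36.5 FPKM, log2 difference -0.64), Egfl7 (-0.61) and the adhesion molecule gene Pecam1 (-0.37), and with TPM 1 of 6 was lower. Between the sedentary groups 3 of 6 were lower as well (median -0.37), beside 6.32% of all genes tested. With training 0 of 6 passed in labelled knockout mice (median -0.02) and 1 of 6 was higher in wild-type mice, beside 2.94% of all genes tested. Adipocyte genes summed to 16.1 and 228 FPKM in the atrial libraries of trained labelled knockout hearts and 58.2 and 130 in those of trained wild-type hearts, against at most 1.11 in sedentary hearts. The epicardial regulator Wt1 rose with training in both genotypes, by 1.11 in wild-type (limma adjusted p = 3.1e-04) and 0.77 in labelled knockout mice (1.7e-04).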
